A study of Mus musculus with 4 samples.

Results

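Cathepsins are the proteases that break down proteins in the lysosome, and cystatin C is a secreted inhibitor of those among them that cut with a cysteine. The genes of 8 cathepsins (Ctss, Ctsk, Ctsl, Ctsb, Ctsz, Ctsc, Ctsh and Ctsd) and of cystatin C (Cst3) were taken by symbol, and these 9 were found among the 22913 genes listed for mouse dermal white adipose tissue (dWAT), the fat layer around the lower ends of hair follicles (HFs).

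RNA of dWAT, separated from the skin of C57BL/6 mice by microdissection, was sequenced in 4 libraries: old mice in telogen, the resting phase of the hair cycle (OTD), young mice in telogen (YTD), old mice in anagen, the growth phase (OAD), and young mice in anagen (YAD). Old mice were 18 months of age and young mice 2 months, no genetic alteration is named, the methods give tissue of 20 mice in each group, and anagen was induced by depilation, so that the anagen groups differ from the telogen groups by the plucking as well as by the phase. The age field of the labels gives 18 months for YTD and 2 months for OAD, against the titles, and the titles were followed. Each group is 1 library, so no spread between animals is known, no difference has a replicate check, and every comparison sets a single library against another.

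Levels are FPKM, the number of sequenced fragments of a gene relative to its length and to the library's mapped fragments. The listed length is a coding length, and how fragments outside it were counted is not given. Levels of different genes can therefore be set side by side only roughly. Differences are those of log2(FPKM + 1), a scale that shrinks the differences of weakly expressed genes, and 1 in size was the limit for counting a gene as different. Depth was estimated only roughly, at 19200000 to 24400000 fragments per library, and the lowest level of any of the 9 genes was 44.4 times the level that 3 fragments would give in its library, a limit that covers counting error only. The libraries were not fat alone. The 15 adipocyte markers were all above 0 and summed to 8689 FPKM in OTD and 7341 in YTD, against 2978 in OAD and 2119 in YAD, but 16 skeletal muscle markers summed to 13545 to 118204 FPKM, 15 matched markers of the hair matrix and shaft summed to 19493 FPKM or more in both anagen libraries, and mitochondrially encoded genes held 14.4% to 52.7% of the summed FPKM. The part of these other tissues in the levels below was not tested.

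The cathepsins differ in how they cut. Cathepsins S, K, L and B cut within protein chains, cathepsins C and H trim chains from the amino end and cathepsin Z from the carboxyl end, while cathepsin D is the aspartic protease of the lysosome and is not inhibited by cystatin C. In fat and skin, cathepsins S and K are known for the breakdown of elastin and collagen, cathepsin L for a hair loss that recurs with the hair cycle in mice that lack it, and cystatin C as a product of many cell types, fat cells included.

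Ctss and Ctsk stood apart from the other members. Ctss, which encodes the protease that trims the invariant chain before peptides are loaded on MHC class II, was at 116 FPKM in OTD and 40.4 in YTD, against 5.32 in OAD and 8.27 in YAD. Its level was high in both telogen libraries and highest in old telogen, where it was 2.86 times that of young telogen. Ctsk, whose product is the main collagen-degrading protease of osteoclasts, was at 112 FPKM in OTD and 42.0 in YTD, against 9.71 in OAD and 12.3 in YAD. The order of the libraries was the same for both genes, OTD, YTD, YAD, OAD, and the highest level was 21.7 times the lowest for Ctss and 11.5 times for Ctsk. In a bulk library, fewer cells of a type and less RNA per cell cannot be told apart.

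The genes of these 2 proteases lie side by side. On GRCm38, Ctsk (ENSMUSG00000028111) is listed on the plus strand of chromosome 3 from 95499286 to 95509362, and Ctss (ENSMUSG00000038642) on the same strand from 95526786 to 95556403, which leaves a gap of 17423 bases. The 250 bases before each RefSeq start (GRCm38.p6, plus strand) are shown because the genes are neighbours and had the same order of levels. Capitals mark GAGGAA on either strand, a core sequence of the ETS family to which PU.1 of myeloid cells belongs, so that a match on the other strand reads TTCCTC. The Ctss stretch is chr3:95526536-95526785 and the Ctsk stretch is chr3:95498960-95499209.
Ctss: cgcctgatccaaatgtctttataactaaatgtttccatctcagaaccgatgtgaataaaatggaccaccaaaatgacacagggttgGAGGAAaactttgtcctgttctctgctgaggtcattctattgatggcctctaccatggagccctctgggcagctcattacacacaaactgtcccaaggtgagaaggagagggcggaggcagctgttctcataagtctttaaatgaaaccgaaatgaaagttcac
Ctsk: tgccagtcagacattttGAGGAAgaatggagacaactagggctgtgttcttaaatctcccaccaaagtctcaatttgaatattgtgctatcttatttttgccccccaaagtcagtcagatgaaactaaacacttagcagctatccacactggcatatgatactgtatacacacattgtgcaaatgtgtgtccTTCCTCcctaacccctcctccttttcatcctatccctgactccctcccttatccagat

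GAGGAA was found in 4 of the 7 members that have a window in the table, Ctss, Ctsk, Ctsc and Cst3, and in 28.3% of all 32851 windows, which run from 250 bases before to 50 after a start, so its presence does not set Ctss and Ctsk apart. In the Ctss window a second match begins at the first base of the transcript. TGANTCA, the AP-1 sequence, was in none of the 7 windows and in 7.81% of all windows. A match is a description of letters and not a site of binding.

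The genes around this pair were looked at for the same difference by age. Within 100000 bases on either side, 7 genes are listed, of which 5 are not cathepsins. None of these 5 differed by age by at least 1, where 3.6% of all genes above 0 did in telogen and 1.18% in anagen. Arnt, just before Ctsk, was at 21.3 FPKM in OTD and 20.02 in YTD, a difference of 0.08, and Golph3l, beyond Ctss, was at 9.70 and 8.40 FPKM, a difference of 0.19. Ensa was lower in OTD, at 64.8 against 97.3 FPKM, a difference of -0.58. Hormad1 was listed at 0 in each library, and Rps10-ps1 at 0 in all but OAD.

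**Figure D1:**
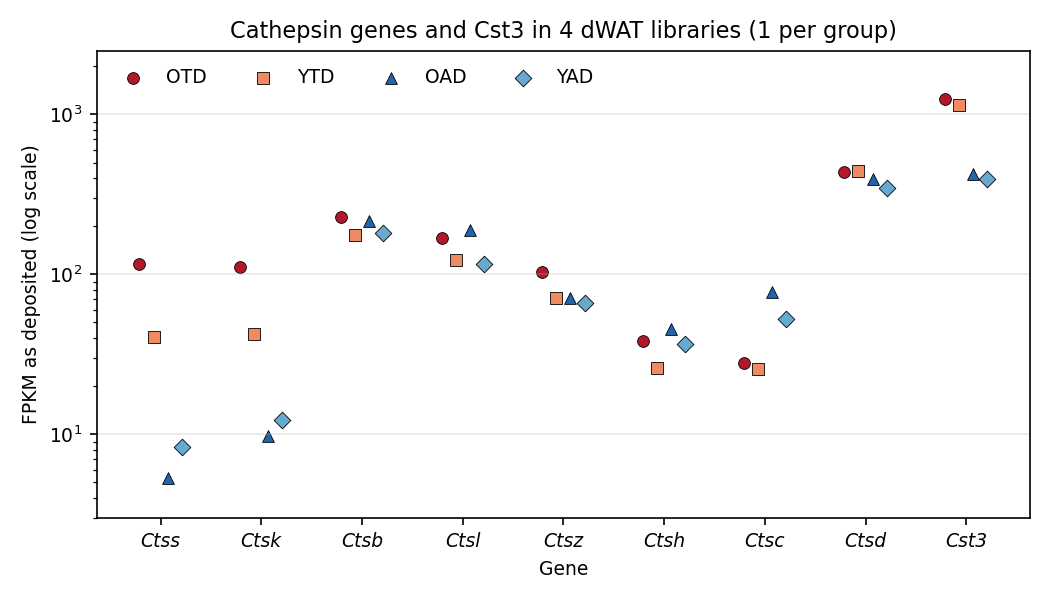
FPKM (log axis) of the 9 genes in OTD, YTD, OAD and YAD, with 1 point per library and no error bars because each group is 1 library. Ctss and Ctsk span 21.7 and 11.5 times between their highest and lowest libraries, whereas Ctsb and Ctsd span 1.29 and 1.27 times.

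Among the endopeptidases other than Ctss and Ctsk, levels varied far less. Ctsl (ENSMUSG00000021477, chromosome 13, minus strand, 64363214 to 64370306) was at 169 FPKM in OTD and 122 in YTD, against 191 in OAD and 117 in YAD. On the deposited scale both old libraries were above both young libraries, and the highest level was 1.64 times the lowest, but under TPM young anagen was above old telogen and this span was 2.39 times. Ctsb (ENSMUSG00000021939, chromosome 14, plus strand, 63122462 to 63145919), which also trims chains from the carboxyl end, was at 229 FPKM in OTD and 177 in YTD, against 216 in OAD and 181 in YAD. It too was higher in both old libraries than in both young ones, within a span of 1.29 times, and under TPM young anagen was again above old telogen, with a span of 1.87 times.

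Ctsd (ENSMUSG00000007891, chromosome 7, minus strand, 142371148 to 142388038) was the most highly listed of the 8 cathepsin genes in every library. Its level was 435 FPKM in OTD and 442 in YTD, against 393 in OAD and 347 in YAD, and it ranked between 219 and 258 among 22900 nuclear genes in the 4 libraries. The highest level of Ctsd was 1.27 times its lowest, the smallest span among the 9 genes.

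The Ctsd window is shown for CACGTG, the E-box at the centre of the element bound by TFEB, a transcription factor known for lysosomal genes. CACGTG was found in 7.15% of all windows and in 2 of the 7 members, at 2 places in Ctsd and 1 in Ctsl. The longer TCACGTG, which contains it and was searched on both strands, was in 3.77% of all windows and, among the members, in Ctsd at both places. The 30-base stretches below are from the minus strand, chr7:142388048-142388077 (first match at base -245 from the start) and chr7:142387908-142387937 (first match at -99), with TCACGTG or its reverse complement in capitals. The near stretch lies within the coordinates listed for the gene, and 211 of the 250 bases before this RefSeq start overlap exons of the GENCODE annotation.
Ctsd, far: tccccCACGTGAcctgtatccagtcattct
Ctsd, near: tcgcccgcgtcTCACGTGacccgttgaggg

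Of the cathepsins that trim chain ends, Ctsc differed most between phases. Ctsc (ENSMUSG00000030560, chromosome 7, plus strand, 88278085 to 88310888), whose product activates the serine proteases of immune cell granules, was at 28.0 FPKM in OTD and 25.5 in YTD, against 77.4 in OAD and 52.3 in YAD. It ran against Ctss and Ctsk, with both anagen libraries above both telogen libraries. Ctsh (ENSMUSG00000032359, chromosome 9, plus strand, 90054152 to 90076089), the aminopeptidase, was at 38.2 FPKM in OTD and 25.9 in YTD, against 45.5 in OAD and 36.6 in YAD, and Ctsz (ENSMUSG00000016256, chromosome 2, minus strand, 174427493 to 174439039), the carboxypeptidase, was at 103 FPKM in OTD and 71.4 in YTD, against 70.7 in OAD and 65.7 in YAD. Ctsh was lowest in YTD, and Ctsz stood higher in OTD than in the other libraries, which lay close together, but under TPM Ctsz was highest in YAD and lowest in YTD.

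Cst3 (ENSMUSG00000027447, chromosome 2, minus strand, 148871722 to 148875692) was listed above every cathepsin gene in each library. Its level was 1255 FPKM in OTD and 1149 in YTD, against 421 in OAD and 394 in YAD, which placed it at rank 67, 85, 247 and 229 among the nuclear genes. The telogen libraries were about alike and the anagen libraries about alike, and the level was 2.92 times higher in telogen than in anagen in young mice and 2.98 times in old mice.

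Set side by side, the levels in OTD ran Cst3, Ctsd, Ctsb, Ctsl, Ctss, Ctsk, Ctsz, Ctsh and Ctsc, and those in OAD ran Cst3, Ctsd, Ctsb, Ctsl, Ctsc, Ctsz, Ctsh, Ctsk and Ctss. Ctss thus followed 4 members in old telogen and stood last in old anagen, while the first 4 places were the same in all libraries. With 1 library per group it cannot be said which neighbours in this order differ beyond their spread. In FPKM, Ctss was 1.04 times Ctsk in OTD and 0.962 times in YTD, and it was the lower of the pair in anagen, at 0.548 times in OAD and 0.671 times in YAD.

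In telogen, where the comparison of ages asks what differs in old resting dWAT, 8 of the 9 genes were listed higher in OTD than in YTD, and 2, Ctss and Ctsk, by at least 1 on the log2 scale. Of all 17230 genes above 0 in either library, 1.67% were that much higher and 3.6% that different in either direction. The differences were 1.49 for Ctss and 1.39 for Ctsk, followed by 0.54 for Ctsh, 0.53 for Ctsz, 0.46 for Ctsl and 0.37 for Ctsb. Ctsc and Cst3 were each higher by 0.13, and Ctsd was at -0.02, a sign that turned under other scalings of the libraries. The median of the 9 was 0.46, against -0.03 over all genes above 0 and -0.15 over the 5424 genes with at least 10 FPKM in both libraries. The remaining 8 genes kept their direction under each of the 4 other scalings, with Ctss between 1.48 and 1.72 and Ctsk between 1.38 and 1.61.

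Markers of several cell types differed between OTD and YTD too. Of 17 macrophage markers, 16 were higher in OTD, 2 of them by at least 1, with a median of 0.47, and their summed level was 1078 FPKM in OTD and 654 in YTD. Of 12 fibroblast markers, 10 were higher, 2 by at least 1, with a median of 0.43 and sums of 1625 and 1165 FPKM. No marker of either list was at 0. The markers that differed by at least 1 were Cd68 (1.20) and Tyrobp (1.03) of macrophages and Dcn (1.38) and Lum (1.03) of fibroblasts. Ctss was 10.7% of the summed macrophage markers in OTD and 6.19% in YTD. Ctsk was 6.87% of the summed fibroblast markers in OTD and 3.61% in YTD. These shares depend on the markers in the sum. Dcn differed about as much as Ctsk (1.39), whereas Col1a1, in the same sum, was lower in OTD (-0.49). Endothelial markers had a median of 0.64, with all 10 higher in OTD, as were the 9 mast cell and neutrophil markers above 0, with a median of 0.28. All 16 skeletal muscle markers and all 15 of the hair matrix and shaft were lower, with medians of -0.63 and -1.06, and 8 of 15 adipocyte markers were higher, with a median of 0.08. The part of these cells in the levels of Ctss and Ctsk was not tested. The 8 partners of cathepsin S in class II presentation, such as Cd74 (the invariant chain) and H2-Aa, were all higher in OTD, none by as much as 1, with a median of 0.59, and H2-Aa differed most, by 0.84.

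In anagen, no member differed by age by as much as 1, and 1.18% of all 17613 genes above 0 did. Ctss was lower in OAD than in YAD by a difference of -0.55 and Ctsk by -0.32, opposite in sign to telogen. Ctsl was higher by 0.70, the only member past 1.5 times, where 4.97% of all genes were past it in either direction, and Ctsc was higher by 0.56. Ctsh was higher by 0.31, Ctsb by 0.25, Ctsd by 0.18, and Ctsz and Cst3 by 0.10 each, and the sign of Ctsd, Ctsz and Cst3 turned under some scalings. The median of the 9 was 0.18, against 0.0 over all genes above 0 and 0.02 over 6155 genes with at least 10 FPKM in both libraries, and it lay between -0.05 and 0.20 over the scalings.

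In anagen, macrophage and fibroblast markers were mostly on the same side as Ctss and Ctsk, and endothelial and adipocyte markers on the other. Mast cell and neutrophil markers (median -0.22), class II partners (-0.13) and hair matrix and shaft markers (-0.13) were also mostly lower in OAD. Skeletal muscle markers (0.28) and those of epidermis and outer root sheath (0.26) were mostly higher. Compared with YAD, OAD was lower in 16 of the 17 macrophage markers, with a median of -0.26 and sums of 130 FPKM in OAD and 168 in YAD. Of the 12 fibroblast markers, 11 were lower, 3 by at least 1, with a median of -0.57 and sums of 240 and 456 FPKM. Ctss was 4.09% of the summed macrophage markers in OAD and 4.92% in YAD, and Ctsk was 4.05% of the summed fibroblast markers in OAD and 2.70% in YAD. Relative to the summed macrophage markers, Ctsk was 7.45% in OAD and 7.33% in YAD. The fibroblast markers that differed by at least 1 were the collagen genes Col1a1 (-1.90), Col1a2 (-1.80) and Col3a1 (-1.48). On the deposited scale the 10 endothelial markers had a median of 0.35 and the 15 adipocyte markers one of 0.30, each of them higher in OAD, and under other scalings these counts were as low as 8 and 9. The part of these cells was not tested.

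**Figure D2:**
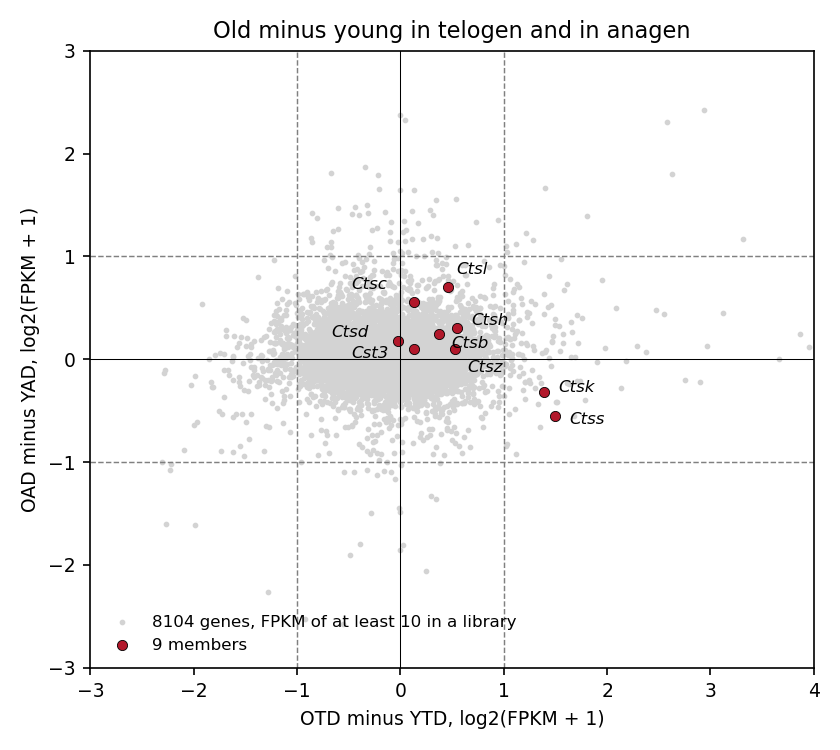
Old minus young difference of log2(FPKM + 1) in telogen (horizontal) and in anagen (vertical) for 8104 genes with at least 10 FPKM in a library (grey, of which 8 lie outside the axes) and the 9 members (red, 1 point per gene from single libraries). Ctss and Ctsk lie far to the right and below 0, at 1.49 and -0.55 and at 1.39 and -0.32, and Ctsl and Ctsc lie highest.

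Between phases, 4 members differed by at least 1 in young mice and the same 4 in old mice. Ctsc was higher in anagen, and Ctss, Ctsk and Cst3 were lower. This share is to be read beside 32.7% of all genes in young mice (16.1% higher and 16.7% lower) and 31.7% in old mice (16.1% higher and 15.6% lower), so that differences by phase were common. The comparisons by phase and by age share libraries and are not independent of each other.

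Ctss was lower in anagen by a difference of -2.16 in young and -4.21 in old mice, which is 4.89 and 21.7 times in FPKM. Ctsk was lower by a difference of -1.69 in young and -3.39 in old mice, or 3.41 and 11.5 times. Both differences were larger in old mice, in which the telogen level was higher and the anagen level lower. Cst3 was lower by differences of -1.54 and -1.57, nearly the same at both ages. Ctsc was higher in anagen by 1.01 in young and 1.43 in old mice, or 2.05 and 2.76 times. Under rescaling to TPM, in which all libraries have the same sum, Ctsk and Cst3 in young mice came to -0.89 and -0.70 and Cst3 in old mice to -0.96, short of 1, while Ctsh in young mice came to 1.30.

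The other members differed little by phase. Ctsh was higher in anagen by 0.48 in young and 0.25 in old mice. Ctsb was at 0.04 and -0.08, Ctsl at -0.07 and 0.17, Ctsz at -0.12 and -0.54 and Ctsd at -0.35 and -0.15, and over the scalings the sign turned for Ctsd and Ctsz at both ages, for Ctsl in young mice and for Ctsb in old mice. The median of the 9 was -0.12 in young and -0.15 in old mice, against 0.02 and 0.01 over all genes above 0, and its sign too turned with the scaling.

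**Figure D3:**
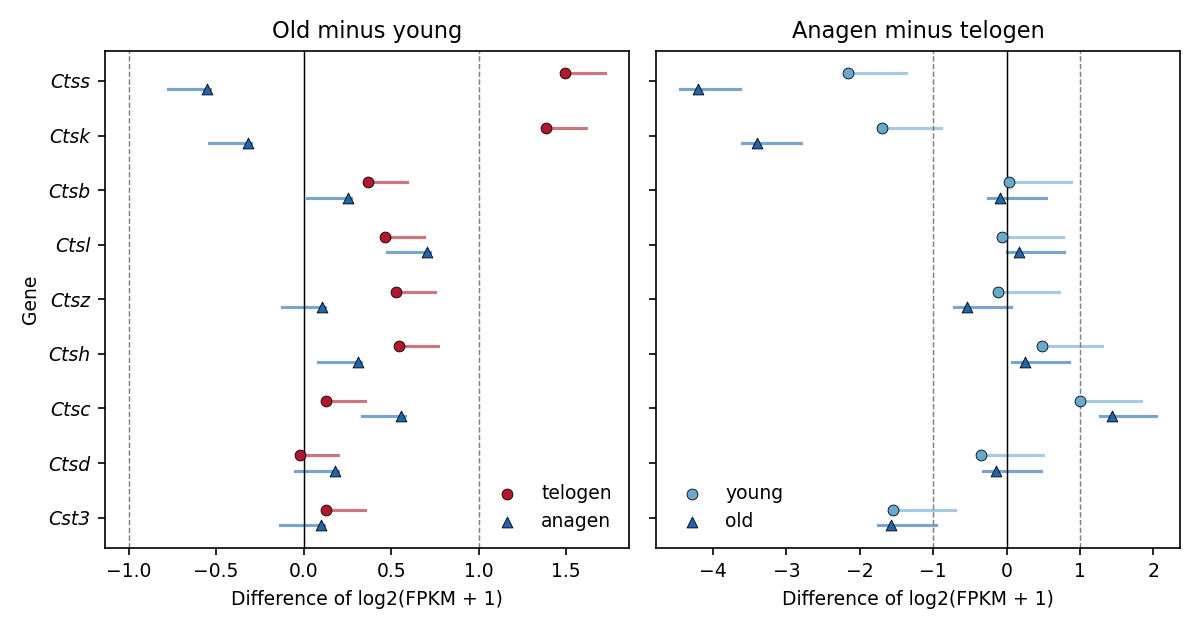
Difference of log2(FPKM + 1) for each of the 9 genes, old minus young in telogen and anagen (A) and anagen minus telogen in young and old mice (B), with a point for the value as deposited and a line from the lowest to the highest value over the deposited scale and 4 other scalings. The lines are no error bars, since each group is 1 library, and those of Ctss and Ctsk stay above 1 in telogen by age and below 0 in anagen.

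Markers of most cell types other than epidermis and hair were lower in anagen, and epidermal and hair markers were higher. All 15 adipocyte markers were lower in anagen at both ages, 14 by at least 1 in young and 13 in old mice, with medians of -1.71 and -1.43. Cst3 was 14.4% of the summed adipocyte markers in OTD and 15.6% in YTD, against 14.1% in OAD and 18.6% in YAD, so that these shares differed less than the levels did. Of the 17 macrophage markers, 16 in young and all 17 in old mice were lower, with medians of -1.56 and -2.32. Fibroblast markers were lower for 10 of 12 at both ages, with medians of -1.12 and -2.58, and all 10 endothelial markers were lower, with medians of -1.68 and -1.93. All 16 skeletal muscle markers were lower, with medians of -3.05 and -2.04, and 7 of the 8 class II partners, with medians of -2.05 and -2.68. Lower levels in anagen were thus shared by the lists set beside Ctss, Ctsk and Cst3 and by others. All 15 matched markers of the hair matrix and shaft were higher in anagen, with medians of 6.02 in young and 6.75 in old mice. Their sums were 217 FPKM in OTD and 412 in YTD, against 22178 in OAD and 19493 in YAD. The 12 epidermal and outer root sheath markers were all higher, with sums of 142 FPKM in OTD and 224 in YTD against 5120 in OAD and 3977 in YAD, and Ctsc went from 19.8% and 11.4% of that sum in OTD and YTD to 1.51% and 1.31% in OAD and YAD. The part of the tissue content in the differences of Ctss, Ctsk, Ctsc and Cst3 was not tested.

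**Figure D4:**
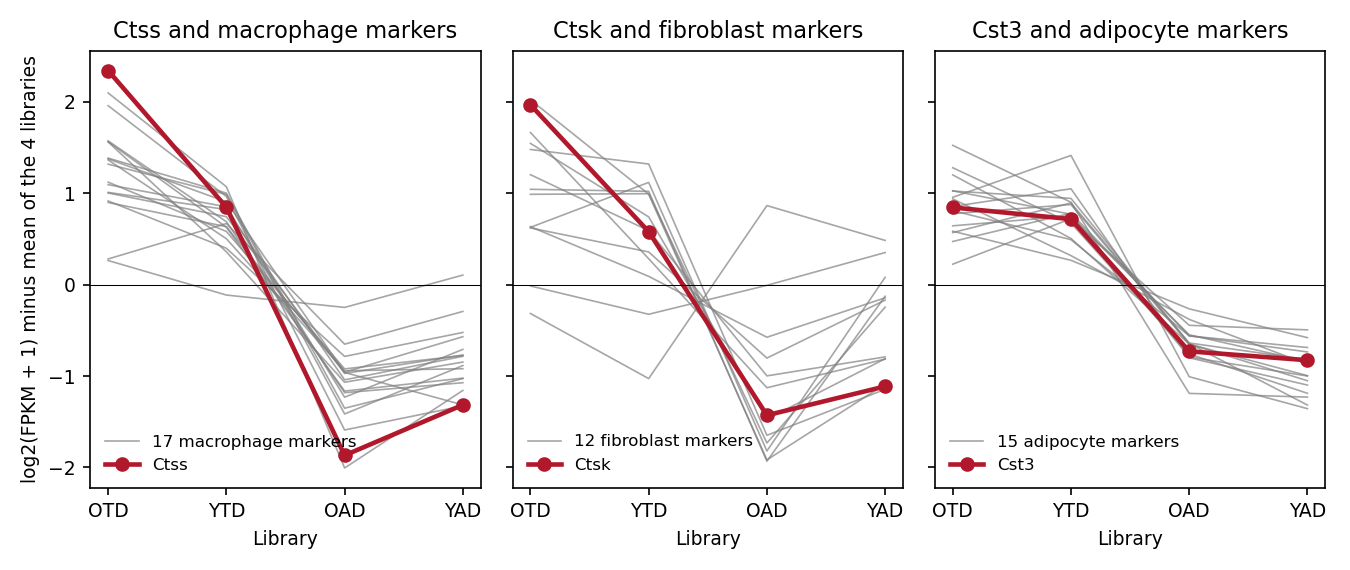
Log2(FPKM + 1) minus the mean over the 4 libraries for Ctss with 17 macrophage markers, Ctsk with 12 fibroblast markers and Cst3 with 15 adipocyte markers, with each gene's 4 values joined by a line (red for the member, grey for the markers) although the libraries have no order. Ctss runs from 116 FPKM in OTD to 5.32 in OAD in the same direction as most macrophage markers, and Cst3 is lower in both anagen libraries, as are all 15 adipocyte markers.

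The makeup of the family differed more than its sum. The 8 cathepsin genes summed to 1230 FPKM in OTD and 946 in YTD, against 1009 in OAD and 820 in YAD, or 1.30 times higher in old than young mice in telogen and 1.23 times in anagen. Ctsd held 35.4% of the sum in OTD and 46.7% in YTD, against 39.0% in OAD and 42.3% in YAD, and Ctsb 18.6% to 22.1%. Ctss and Ctsk together were at 227 FPKM in OTD and 82.5 in YTD, against 15.0 in OAD and 20.6 in YAD. Their shares were 9.41% and 9.07% of the sum in OTD and 4.27% and 4.44% in YTD, against 0.528% and 0.963% in OAD and 1.01% and 1.503% in YAD. Ctsc went the other way, from 2.28% in OTD and 2.70% in YTD to 7.68% in OAD and 6.37% in YAD.

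The inhibitor stood in a different ratio to its targets in each library. The FPKM of Cst3 divided by the summed FPKM of the 7 cysteine cathepsins was 1.58 in OTD and 2.28 in YTD, against 0.685 in OAD and 0.832 in YAD. It was lower in old than in young mice in both phases, at 0.693 of the young ratio in telogen and 0.823 in anagen, and lower in anagen than in telogen at both ages. A ratio within a library does not move with a common scaling of that library, but it does depend on the length listed for each gene. It is a ratio of RNA levels and does not measure inhibition, and without Ctsk in the sum it was 1.84, 2.49, 0.696 and 0.855 in the same order. With Cstb, the intracellular cystatin B, added to Cst3, the ratio was 1.74 in OTD and 2.45 in YTD, against 1.10 in OAD and 1.20 in YAD.

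**Figure D5:**
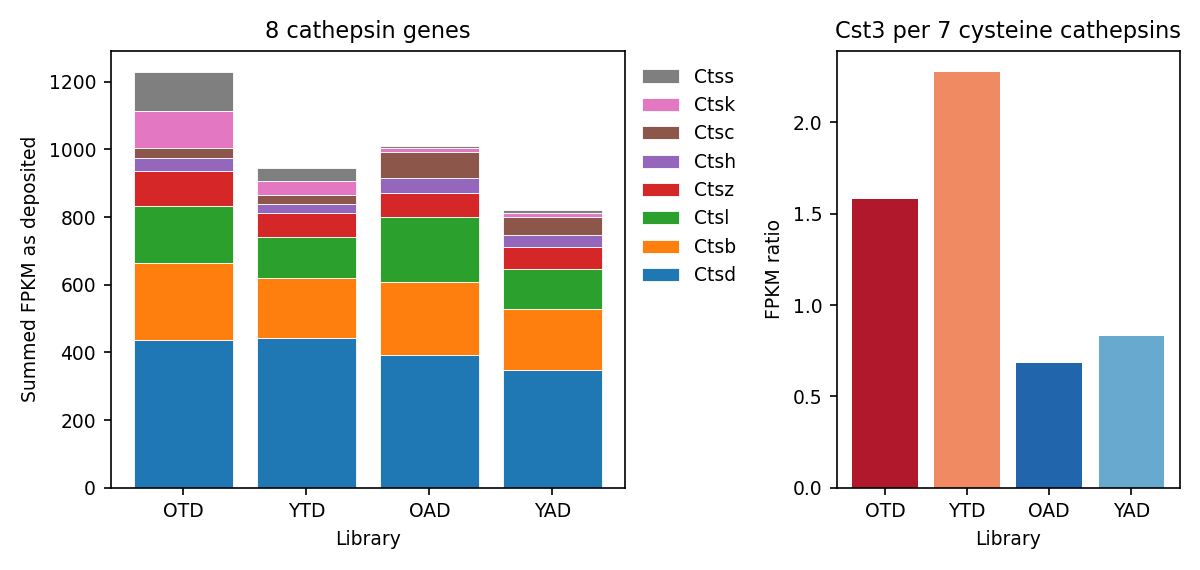
Left, stacked FPKM of the 8 cathepsin genes in each library, with the segments of Ctss and Ctsk together at 227 in OTD and 15.0 in OAD. Right, FPKM of Cst3 divided by the summed FPKM of the 7 cysteine cathepsins, from 2.28 in YTD down to 0.685 in OAD, with bars from 0 and no error bars because each group is 1 library.

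The genes whose pattern was most like each member were found among 8104 genes with at least 10 FPKM in a library, by the root mean square difference of log2(FPKM + 1) centred on each gene's own mean over the 4 libraries. For Ctss these were Ogn (0.14), Ccl7 (0.15) and Ccl2 (0.17), and for Ctsk they were Mmp3 (0.061), Mpeg1 (0.13) and Ccn5 (0.16). For Cst3 they were Stom (0.030), Cd93 (0.038) and Lsp1 (0.042). S100a11 was nearest to Ctsb (0.0082), Pacsin2 to Ctsd (0.018), Rgl1 to Ctsl (0.028), Slc2a1 to Ctsz (0.022), Fam135a to Ctsc (0.069) and Rab8b to Ctsh (0.033). Among the members, Ctsb and Ctsl were the closest pair (0.17), Ctss and Ctsk differed by 0.33, and Ctss and Ctsc were farthest apart (2.29). With 4 libraries, many genes can share a pattern. Ccl7, Ccl2, Mmp3 and Mpeg1 were below 1 FPKM in OAD, where the added 1 shrinks their differences. Between OTD and OAD, their ratios in FPKM were therefore larger than those of Ctss and Ctsk. Mmp3, for example, was at 18.6 FPKM in OTD and 0.681 in OAD.

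The other genes of the cathepsin family did not share a single pattern. Of 15 other genes of this kind, legumain (Lgmn) included, 8 were listed at 0 in all libraries, among them placental cathepsins. None differed by age by at least 1 in telogen, where the median was 0.20, or in anagen, where it was 0.14, and the anagen sign turned with scaling. Over all genes above 0, 3.6% differed that much in telogen and 1.18% in anagen. Ctse, the aspartic cathepsin E, was higher in anagen, at 0.682 FPKM in YTD against 41.1 in YAD and at 0.682 in OTD against 54.0 in OAD, differences of 4.65 and 5.03. Ctsa, the serine carboxypeptidase cathepsin A, was between 48.1 and 56.2 FPKM in the 4 libraries, and Ctsf, a cysteine cathepsin, between 15.2 and 25.4 FPKM. Ctso was lower in anagen, by differences of -1.86 in young and -2.74 in old mice, and Lgmn, the asparaginyl protease that processes cathepsins, by -1.23 and -1.24. Ctso was at 17.5 FPKM in OTD and 10.2 in YTD, against 1.76 in OAD and 2.07 in YAD. Its order of libraries was that of Ctss and Ctsk, and by age it differed by 0.72 in telogen and -0.16 in anagen.

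Of 20 other cystatins listed, 18 were matched and 12 were above 0 in a library. None differed by age by at least 1, where 3.6% of all genes above 0 did in telogen and 1.18% in anagen. With the added 1, a gene below 1 FPKM in both libraries cannot reach that limit. Many of these genes were that low, so for them the outcome was fixed in advance. The medians of the cystatins were 0.43 in telogen and 0.47 in anagen. In telogen, all but Cst6 and Cstb were at 1.44 FPKM or less in both libraries. In anagen, all but Cst6, Cstb, Csta1 and Stfa2 were at 1.10 FPKM or less in both libraries. Both medians thus rest mostly on weakly expressed genes and do not describe the cystatins as a group. Cst6, the cystatin M/E of the epidermis and hair follicle, was at 13.1 FPKM in OTD and 9.35 in YTD, against 46.0 in OAD and 23.7 in YAD, so that it was highest in old anagen. Csta1 and Stfa2, of the stefin A group, were higher in anagen by 4.46 and 3.85 in young and by 4.96 and 4.36 in old mice, with Stfa2 listed at 0 in OTD. Genes of that group are near-identical copies, so that their separate levels are uncertain. Cstb was at 129 FPKM in OTD and 88.4 in YTD, 255 in OAD and 172 in YAD, and Cst3 was 9.77 and 13.0 times Cstb in the telogen libraries OTD and YTD and 1.65 and 2.29 times in OAD and YAD.

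The other enzymes of the lysosome did not reach the difference of Ctss and Ctsk by age. Of 40 lysosomal hydrolases, 30 were higher in OTD than in YTD and 10 lower, none by at least 1, with a median of 0.20, and the largest were Scpep1 (0.98), a serine carboxypeptidase, and Lipa (0.96), the acid lipase. Over all genes above 0, 3.6% differed by at least 1 in telogen, so that none among 40 is near that share. In anagen 17 had a higher and 23 a lower level in OAD, the median was -0.05, and Ppt1 (-0.52), Glb1 (-0.42) and Gm2a (0.33) differed most. Between phases, on the deposited scale, 4 were higher and 4 lower in young mice by at least 1, and 4 higher and 10 lower in old mice. Of all genes above 0, 32.7% differed that much in young and 31.7% in old mice. Of 14 lysosomal membrane genes none differed by age by at least 1, with medians of 0.13 in telogen and -0.06 in anagen, while Npc1 and Ctns were higher and Laptm5, of blood-derived cells, lower in anagen at both ages.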

How the data were processed

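Per the labels, RNA was isolated with Trizol and checked on a Bioanalyzer, and the methods name an Illumina HiSeq instrument. The submitters' processing notes name bcl2fastq, TopHat2 and the build GRCm38, and the counter, the annotation and the tool that made the FPKM are not given in the sources used here. Each file deposited by the authors lists the FPKM of 22913 genes, their coordinates and a length, which is a coding length. Of 22166 Ensembl identifiers, 21750 were matched to a symbol.

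FPKM were used as deposited. Genes above 0 in a compared library entered a comparison. With 1 library per group there is no test and no error. Depth was estimated roughly from the lowest values of FPKM times length in features of 2000 to 4000 bp. The members and gene lists were chosen with earlier results of these data known. The genes named are the 9 members, the list genes that differ by at least 1 (or, where none or over 6 do, the 3 largest differences) and the 3 genes most like each member, of which the nearest is given for 6 members. Cd74, Cstb, Ctsa and the neighbours of Ctss and Ctsk were named outside this rule. Some genes the rule names are not reported here. The software was pandas 2.3.3 and numpy 2.4.6 under Python 3.11.15, and matplotlib 3.10.9 for the plots. The steps were tested on simulated data.

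Alternatives were a pseudocount of 0.1 or 0.01, 4 other scalings (TPM, the median of ratios over 11181 genes, and leaving out mitochondrially encoded genes alone or with skeletal muscle, keratin and keratin-associated protein genes), a filter at 1 FPKM and a fold of 1.5. Promoter windows came from RefSeq (GRCm38.p6), with motifs searched on both strands.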

Additional observations from a re-analysis of the deposited data

Results flagged for a closer look

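For 5 results the direction differed between 2 settings in which the same contrast was made. Each group is 1 library, so the difference was not tested in any of them. For Ctss the difference of old from young mice was 1.49 in telogen and -0.55 in anagen, 2.05 apart on the log2 scale, and for Ctsk it was 1.39 and -0.32, 1.70 apart. For both genes these directions held under each of the 4 other scalings. For Ctsd the same contrast was -0.02 in telogen and 0.18 in anagen, -0.20 apart. For Ctsb the difference of anagen from telogen was 0.04 in young and -0.08 in old mice, 0.12 apart, and for Ctsl it was -0.07 and 0.17, -0.24 apart. The directions of Ctsd in both phases, of Ctsb in old mice and of Ctsl in young mice turned with the scaling.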

How the results depend on the processing

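No paired analysis was possible because each group is 1 library and the labels carry no replicate numbers, and for the same reason no replicate could be left out. Among the values of single members, 283 stayed within the same call and 5 did not, and no called value changed its sign. The 283 include the filter at 1 FPKM, which could move no member because each was above it in every library. At a fold of 1.5 the count of members that differed by age in anagen was 1 in place of 0, and TPM changed the phase comparisons. Under TPM the members' median was 0.72 in young and 0.47 in old mice, and the 8 cathepsins summed to 1.56 and 1.26 times the telogen level in place of 0.867 and 0.820. TPM moved the median of all genes with at least 1 FPKM to 0.76 and 0.58, from which the members' median differed by -0.04 and -0.11, against -0.15 and -0.19 on the deposited scale. By age, the members' median less that of all genes was 0.52 to 0.56 in telogen and 0.16 to 0.18 in anagen over the alternatives. A common scaling of a library moves both medians nearly alike, so these narrow ranges were set by the method and are no check of the result. The cause of the shifts under TPM was not tested. Depth limits no value of a member, but no spread between animals is known.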

Other observations

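Genes that acidify the lysosome and that deliver its enzymes did not share one direction by age. Of 19 matched V-ATPase genes, the subunits of the lysosomal proton pump, 8 were higher and 11 lower in OTD than in YTD, with a median of -0.04, a sign that turned with scaling. Atp6v0d2, a subunit known from osteoclasts and macrophages, was the only one of the 19 that differed by age by at least 1. Over all genes above 0, 3.6% differed that much in telogen, so that 1 among 19 is near that share. Atp6v0d2 was at 4.46 FPKM in OTD and 0.538 in YTD, against 2.10 in OAD and 3.61 in YAD. The difference was 1.83 in telogen and -0.57 in anagen. Its YTD level was low, as 3 fragments would give up to 0.148 FPKM for this gene. Of 9 genes of mannose 6-phosphate sorting, 3 were higher and 6 lower in OTD, with a median of -0.30. M6pr, a receptor of this route, was higher by 0.54, while Gga1 and Gga3 were lower, at -0.52 and -0.49. In anagen 1 was higher and 8 lower in OAD, with a median of -0.04. Tfeb was at 29.3 FPKM in OTD and 48.4 in YTD, against 19.5 in OAD and 22.6 in YAD, lower in old telogen by a difference of -0.71. Of the 4 genes of its family, 2 were higher and 2 lower in OTD than in YTD, with a median of 0.05.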
